A study of Mus musculus with 9 samples.

Results

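In all, 10 genes of cytokine signalling were described across splenic B cells of young and aged mice: the feedback inhibitors Socs1, Socs2, Socs3 and Cish, the transcription factors Stat3, Stat4, Stat5a, Stat5b and Stat6, and the kinase Pim1. They are 10 of the 24346 genes listed, were found by gene symbol, and had a value in each of the 9 libraries. The genes were selected on results of these same libraries that were already known, namely FPKM levels and fold changes between the groups below, so the fits of the 10 genes are given as a description and support nothing by themselves. The label of the set held by membership, since all 10 genes belong to the SOCS, STAT or Pim families, while the measured levels are of RNA and not of signalling.

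Cells were sorted from spleens of wild-type C57BL/6 mice into 3 groups of 3 libraries. FO B (Young) and FO B (Aged) are follicular B cells (B220hiCD43-CD23+CD21lo) of mice aged 8 and 50 weeks, and ABCs (Aged) are age-associated B cells (B220hiCD43-CD23-CD21loCD11b+CD11c+) of mice aged 50 weeks. None of the groups is described as treated or transgenic. RNA-seq gave FPKM, the reads of a gene scaled to transcript length and library depth, so that levels of different genes can be compared. About 8080000 to 9820000 mapped reads per library follow from how much a single read adds to the values. The summed FPKM of 8 B lineage genes was 30589 to 34536 in every library. Fcer2a (CD23) was 697 to 1036 FPKM in FO B libraries and 0.463 to 6.95 in ABCs, and Itgax (CD11c) was at most 0.206 and 45.0 to 59.7 FPKM, respectively. Spn (CD43) did not follow the gates, which were CD43- for all groups. Its RNA was at 2.75 to 4.99 FPKM in FO B libraries and 54.1 to 86.7 in ABCs. Of 10 macrophage and monocyte genes, 5 were tested and 3 were higher in ABCs than in aged FO B cells, and their sum (22.0 to 59.9 FPKM in FO B cells, 274 to 323 in ABCs) was mostly Adgre1 (174 to 222 FPKM in ABCs) and Ly6c2 (61.3 to 84.1). Cd68 was also higher (6.38 to 13.1 FPKM in ABCs, 3.15 to 4.70 in aged FO B cells), while Lyz2 and C1qb were not. Csf1r, Cd14, Fcgr1 and Mertk were below 1 FPKM in every library. Of 8 dendritic cell genes, 5 were tested and 3 were higher in ABCs than in aged FO B cells. These were Itgax, Zbtb46 (2.90 to 3.34 against 0.437 to 1.46 FPKM) and Batf3 (1.99 to 9.46 against 0 FPKM), while Flt3 and Bst2 were not higher. ABCs replicate 3 stood somewhat apart, with a mean correlation of 0.961 with its own group against 0.969 to 0.976 for the other libraries, so results that rest on it are given with and without it.

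Cytokines bind paired receptor chains, which activate Janus kinases, and these phosphorylate STAT proteins that enter the nucleus and switch on target genes. SOCS proteins and CIS, the product of Cish, are made in response to STATs and shut the pathway off by blocking Janus kinases or by sending receptor complexes for degradation. Pim1 is a serine/threonine kinase, also induced by STATs, that supports survival and growth. In B cells, IL-4 acts through STAT6, IL-21 and IL-10 act largely through STAT3, and IL-7, IL-2 and related cytokines act through STAT5.

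Socs3, Socs1 and Stat3 were higher in all 6 libraries of aged mice than in any FO B (Young) library, and Pim1 was higher in the 3 ABC libraries. Stat4 was higher in every FO B (Aged) library than in FO B (Young), and lower in the 3 ABC libraries than in any FO B library. The share of all genes that separate in this way was not determined, so this only describes the 10 genes. The STATs of the IL-4 and IL-2 pathways, Stat6, Stat5a and Stat5b, overlapped between all groups. Of the 10 genes, 8 had a mean of at least 1 FPKM and entered the fit of log2(FPKM + 1) with limma, in which a gene was called at a Benjamini-Hochberg FDR under 0.05 over all genes tested. Socs2 and Cish did not. Between FO B (Aged) and FO B (Young), 1 of the 8 genes (Socs3) was called higher and 0 lower, where 0.346% of all 10122 genes tested were called higher and 0.119% lower. Between ABCs (Aged) and FO B (Aged), 0 of the 8 were called in either direction, 1 of them (Pim1) with an unadjusted p under 0.05, where 19.4% of 10412 genes were called higher and 16.5% lower. Between ABCs (Aged) and FO B (Young), where subset and age differ together, 4 of the 8 (Socs1, Socs3, Stat3 and Pim1) were called higher and 0 lower, where 21.6% of 10438 genes were called higher and 19.1% lower. The comparisons share libraries pairwise, so their values stand side by side and are not independent. The median fitted change of the 8 genes was 0.19, 0.04 and 0.28 on the log2 scale in this order, beside 0.00, -0.01 and -0.01 over all genes tested.

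**Figure D1:**
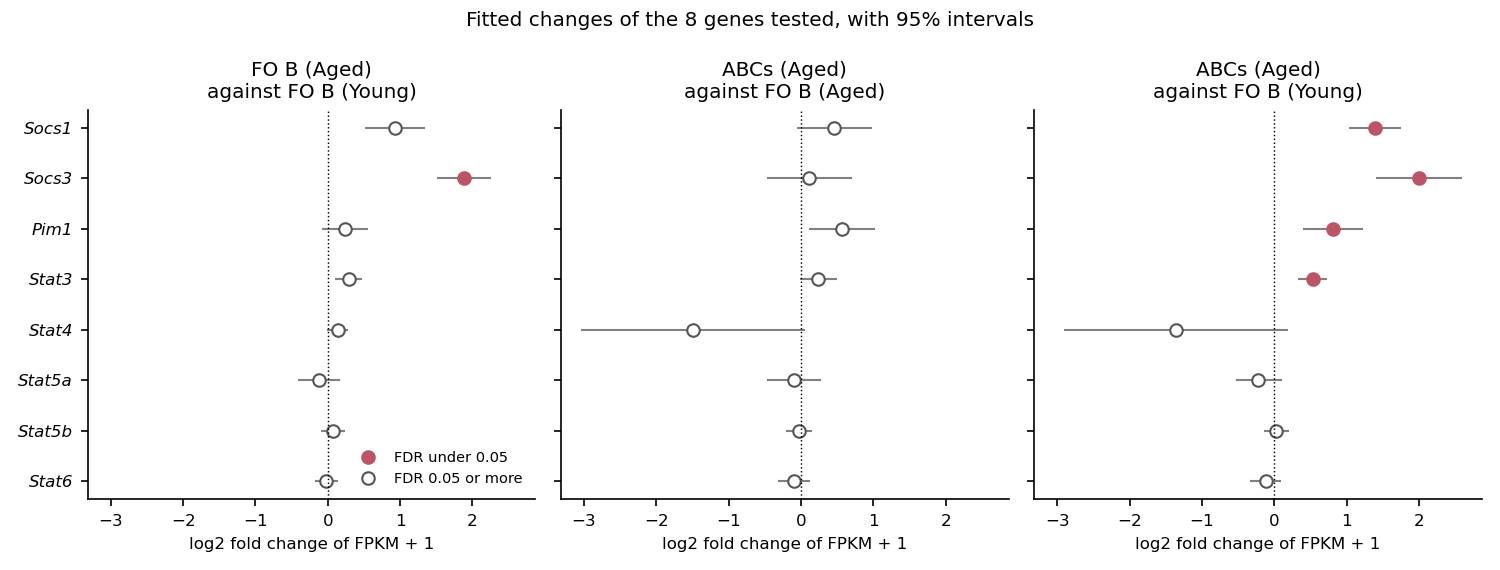
Fitted log2 fold changes of FPKM + 1 (points) with 95% intervals (lines) of the 8 genes tested, in 3 comparisons of 3 against 3 libraries; filled points had an FDR under 0.05. Socs3 alone is filled for FO B (Aged) against FO B (Young), no gene is filled for ABCs (Aged) against FO B (Aged), and Socs1, Socs3, Pim1 and Stat3 are filled for ABCs (Aged) against FO B (Young).

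Socs3 encodes an inhibitor that binds the gp130 chain of the IL-6 receptor family and blocks its Janus kinases. Its level was 3.49, 2.40 and 3.56 FPKM in FO B (Young), 16.6, 11.5 and 14.8 in FO B (Aged), and 19.3, 10.1 and 18.7 in ABCs (Aged). All 6 libraries of aged mice lay above all 3 of young mice, while the aged groups overlapped, with ABCs replicate 2 the lowest of the 6. The mean was 3.15 ± 0.65, 14.3 ± 2.56 and 16.0 ± 5.14 FPKM (SD, n = 3), with that of FO B (Aged) 4.55 times that of FO B (Young). The fitted log2 fold change was 1.88 (SE 0.16, 95% interval 1.51 to 2.26, FDR 0.00356 by limma) for FO B cells and 2.0 (SE 0.25, FDR 0.000931) for ABCs (Aged) against FO B (Young). Between ABCs and aged FO B cells it was 0.11 with an interval of -0.47 to 0.70 (FDR 0.747), and its sign turned when any of 3 single libraries was left out. The FDR for FO B cells was 0.121 when genes at 0 in every library were kept in the fit, an alternative added after the data were seen. In such bulk samples, fewer expressing cells and less RNA per cell cannot be told apart.

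Socs1 encodes the main inhibitor of interferon and common gamma chain cytokine signalling. Its level was 7.04, 6.11 and 6.19 FPKM in FO B (Young), 16.9, 9.44 and 14.2 in FO B (Aged), and 18.9, 14.8 and 22.5 in ABCs (Aged). The young libraries lay below all 6 libraries of aged mice, and the aged groups overlapped. The means were 6.44 ± 0.519, 13.5 ± 3.76 and 18.7 ± 3.85 FPKM (SD, n = 3). The log2 fold change was 0.93 (SE 0.18, FDR 0.0966) for FO B (Aged) against FO B (Young). With single libraries left out, its FDR ranged from 0.0116, without FO B (Aged) replicate 2, the lowest of its group, to 0.29. Of 17 alternatives only that 1 was called, and the highest FDR was 0.449. The log2 fold change was 1.39 (SE 0.15, FDR 0.000514) for ABCs (Aged) against FO B (Young) and 0.46 (SE 0.22, FDR 0.147) for ABCs against aged FO B cells. An exact two-sided permutation test of the mean FPKM of Socs1 or Socs3 gave p = 0.1 for either aged group against FO B (Young), the smallest p that 3 against 3 libraries allow. The ratio of Socs3 to Socs1 was 0.488 ± 0.0913 in FO B (Young), 1.08 ± 0.124 in FO B (Aged) and 0.844 ± 0.17 in ABCs (SD, n = 3).

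The 250 bases before the RefSeq start of Socs3 and of Socs1 are shown because these are the 2 genes of the set with the largest differences between aged and young FO B cells (GRCm38.p6, minus strand, 5′ to 3′). The capitals mark the match to TTCNNNGAA, the letters at which STAT dimers are known to bind. The Socs3 window is chr11:117969367-117969616 and the Socs1 window is chr16:10785537-10785786.
Socs3: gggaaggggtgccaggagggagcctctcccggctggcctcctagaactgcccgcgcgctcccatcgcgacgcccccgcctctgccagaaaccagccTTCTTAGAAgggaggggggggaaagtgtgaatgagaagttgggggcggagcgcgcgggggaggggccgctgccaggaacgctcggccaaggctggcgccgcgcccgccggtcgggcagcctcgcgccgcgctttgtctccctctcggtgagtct
Socs1: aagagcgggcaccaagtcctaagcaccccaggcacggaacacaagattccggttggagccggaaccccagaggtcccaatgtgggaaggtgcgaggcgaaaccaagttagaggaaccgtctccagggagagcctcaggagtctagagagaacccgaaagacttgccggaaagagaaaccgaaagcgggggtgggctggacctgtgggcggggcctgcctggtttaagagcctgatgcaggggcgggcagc
The match in Socs3 reads TTCTTAGAA, begins 154 bases before the RefSeq start, and lies 334 bases before the start of the protein-coding transcript in GENCODE M21. The window partly overlaps an exon of a non-coding transcript of Socs3, outside the match. RefSeq windows were found for 9 of the 10 genes, 13 windows in all, and both strands were searched for TTCNNNGAA and for the same letters with 4 bases between TTC and GAA, the spacing known for STAT6. Only the Socs3 window held either, while 7.02% of all 32851 promoter windows of the same length held the first, 5.85% the second and 12.4% either. A match is a description of letters and not of binding, and no match says only that these letters are not in that window.

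Cish and Socs2, inhibitors best known for STAT5-driven feedback on the growth hormone and IL-2 receptors, were close to the detection limit. Cish was at 0.519, 0.467 and 0.0580 FPKM in FO B (Young), 0.252, 0.104 and 0.115 in FO B (Aged), and 0.812, 1.30 and 0.434 in ABCs (Aged). These correspond to 18, 8 and 43 reads per group when the smallest step of its values is taken as 1 read. Socs2 was at 0.242, 0.0611 and 0.486 FPKM, 0.198, 0.108 and 0 FPKM, and 0.458, 1.33 and 0.519 FPKM in the same order, or at most 17.2 reads in any FO B library and 48.4 in any ABC library if all came from its longest transcript. For both genes the 3 ABC libraries lay above the 3 FO B (Aged) libraries and overlapped the young ones. In a fit with no filter on low values, ABCs (Aged) against FO B (Aged) gave 0.65 for Cish (SE 0.18, FDR 0.0481) and 0.65 for Socs2 (SE 0.19, FDR 0.0623). ABCs replicate 2, the highest library for both, was also the highest for the T cell gene Cd3g, while Cd3e, Cd4 and Cd8a were at 0 in it. Cish also shares its locus with the predicted genes Gm17040 and Gm17041, and the library kit did not mark strand.

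**Figure D2:**
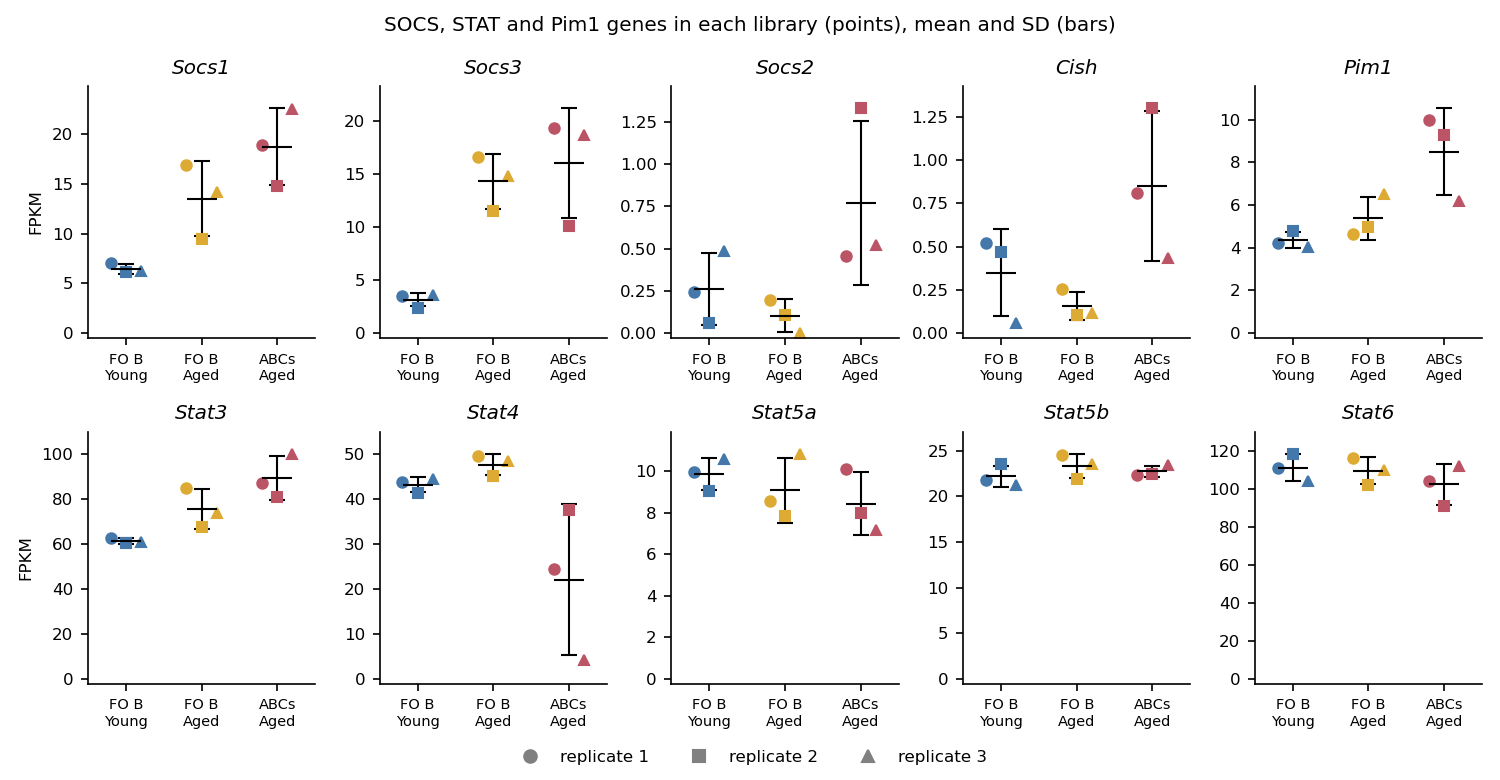
FPKM (vertical axes, each with its own scale from 0) of the 10 genes in FO B (Young), FO B (Aged) and ABCs (Aged); symbols are the 3 replicates and bars the mean and SD. For Socs1 and Socs3 the young libraries lie below all libraries of aged mice, Stat4 in ABCs ranges from 4.19 to 37.4 FPKM, and Stat5a, Stat5b and Stat6 overlap between the groups.

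Stat3, the factor of IL-6, IL-10 and IL-21, was at 62.8, 60.5 and 60.9 FPKM in FO B (Young), 85.1, 67.8 and 73.8 in FO B (Aged), and 87.1, 81.2 and 100 in ABCs (Aged). Young libraries were again below all 6 of aged mice, and the aged groups overlapped. The log2 fold change was 0.53 (SE 0.09, FDR 0.00277) for ABCs (Aged) against FO B (Young). It was 0.29 (SE 0.08, FDR 0.193) for FO B (Aged) against FO B (Young) and 0.24 (SE 0.11, FDR 0.129) for ABCs against aged FO B cells. FDR was at most 0.0257 for the first of these over 17 alternatives. Socs3 per Stat3 was 0.0512 ± 0.0101 in FO B (Young), 0.189 ± 0.0164 in FO B (Aged) and 0.177 ± 0.0492 in ABCs (SD, n = 3).

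Stat4, the factor of IL-12 and type I interferon that is known for its role in T helper and NK cells, ranged widely among the ABC libraries. FO B (Young) libraries had 43.8, 41.2 and 44.3 FPKM and FO B (Aged) had 49.4, 45.0 and 48.3. ABCs had 24.5, 37.4 and 4.19 FPKM, all below every FO B library. The log2 fold change of ABCs against aged FO B cells was -1.50 with a wide interval of -3.04 to 0.05 (SE 0.66, FDR 0.117). Without ABCs replicate 3 it was -0.63 (FDR 0.0200), without replicate 2 it was -2.08 (FDR 0.0407), and against FO B (Young) the values were -1.36 (FDR 0.141), -0.49 (FDR 0.0405) and -1.94 (FDR 0.0451) in the same order. The 3 ABC libraries had the same order for the sum of 11 T cell genes (16.2, 45.1 and 7.53 FPKM), which was mostly Cd3g (9.63, 37.0 and 4.93 FPKM) and Tcf7 (2.33 to 5.77 FPKM). Cd3e, Cd4, Cd8a, Cd247 and Bcl11b were at most 0.213 FPKM in any ABC library, and Lat was at 0 to 0.864 FPKM in ABCs and 0.594 to 2.53 in aged FO B cells. Replicate 3 was also lowest for the sum of 8 NK cell genes (5.82, 5.43 and 0.202 FPKM), mostly Klrd1 and Nkg7, while Ncr1, Gzma, Gzmb and Eomes were at most 0.183 FPKM in ABCs. In FO B libraries T cell genes summed to 1.20 to 3.23 FPKM beside 41.2 to 49.4 FPKM of Stat4. Outside these lists, Jak2 also had the order of Stat4 in ABCs (10.2, 11.8 and 5.18 FPKM). The share of all genes with this order of the 3 libraries was not determined, so the shared order only describes these genes. Any part of T or NK cells in the Stat4 values was not tested.

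Stat6, which carries the IL-4 signal, was the most abundant gene of the set in all 3 groups, at 104 to 118, 102 to 116 and 90.7 to 112 FPKM. Stat5b was at 21.3 to 23.5, 21.9 to 24.5 and 22.3 to 23.4 FPKM, and its close paralog Stat5a at 9.04 to 10.6, 7.82 to 10.8 and 7.17 to 10.1 FPKM. Groups overlapped for all 3 genes. Between ABCs and aged FO B cells the log2 fold change was -0.10 for Stat6 (95% interval -0.32 to 0.12), -0.03 for Stat5b (-0.21 to 0.15) and -0.10 for Stat5a (-0.47 to 0.28), with FDR of 0.418, 0.766 and 0.656 by limma. Between aged and young FO B cells the intervals were -0.18 to 0.14, -0.10 to 0.24 and -0.41 to 0.17. Stat5b thus stood at 2.27 ± 0.301, 2.61 ± 0.386 and 2.77 ± 0.525 times Stat5a (SD, n = 3). Of all stretches as long as a read, 2.75% of those in the longest Stat5a transcript and 5.12% of those in Stat5b occur in the other gene, so few reads could be shared.

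Summed over the 5 STAT genes of the set, Stat6 made up 44.8%, 41.4% and 41.7% of the FPKM in FO B (Young), FO B (Aged) and ABCs. Stat3 made up 24.8% ± 0.722, 28.5% ± 1.37 and 36.5% ± 3.61 (SD, n = 3), with no overlap between any of the groups. Stat4 made up 17.4% and 18% in the FO B groups and 9.06% in ABCs on average, and from 1.7% to 15.6% among the ABC libraries. A share moves with the other genes in the sum, and the Stat3 share of ABCs replicate 3 (40.6%) stands beside its low Stat4, while those of the other 2 ABC libraries were 33.9% and 35.1%.

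**Figure D3:**
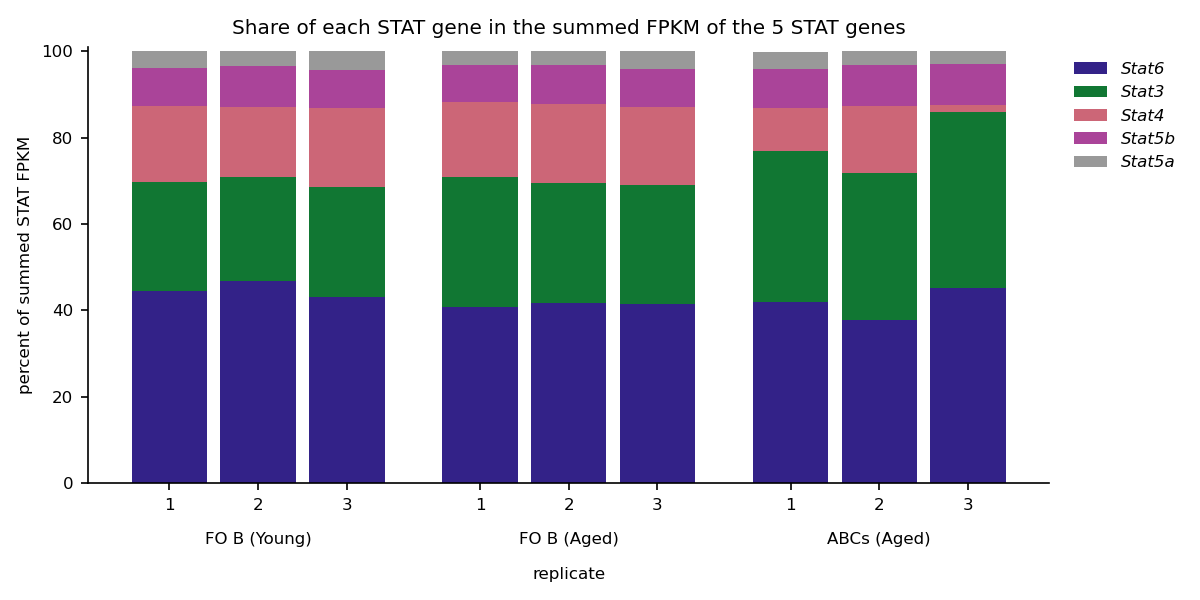
Share in percent (vertical axis) of Stat3, Stat4, Stat5a, Stat5b and Stat6 in their summed FPKM, for each of the 9 libraries grouped as FO B (Young), FO B (Aged) and ABCs (Aged). The Stat3 band is wider in ABCs (33.9% to 40.6%) than in any FO B library, and the Stat4 band is down to 1.7% in ABCs replicate 3.

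Pim1 was at 4.23, 4.80 and 4.04 FPKM in FO B (Young), 4.63, 4.98 and 6.49 in FO B (Aged), and 10, 9.30 and 6.20 in ABCs (Aged). ABC libraries lay above all young ones, whereas ABCs replicate 3 was below the highest FO B (Aged) library. The log2 fold change was 0.81 (SE 0.18, FDR 0.00988) for ABCs (Aged) against FO B (Young) and 0.24 (SE 0.14, FDR 0.518) between the FO B groups. Between ABCs and aged FO B cells it was 0.57 (SE 0.19, FDR 0.0568), and 0.76 (FDR 0.00807) without ABCs replicate 3. That FDR was the lowest with single libraries left out, and the highest was 0.166. Of 17 alternatives, 2 were called. The family members of Pim1 are more abundant in B cells. Pim2 was at 45.2 to 48.8, 57.6 to 65.6 and 40.4 to 65.1 FPKM and was not called in any comparison, while Pim3 fell by 0.62 on the log2 scale in ABCs against aged FO B cells (SE 0.12, FDR 0.00776), from 19 ± 1.35 to 12.1 ± 1.83 FPKM (SD, n = 3). Pim1 and Pim3 thus had fitted changes of opposite sign in this comparison.

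By level, the order in FO B (Young) was Stat6, Stat3, Stat4, Stat5b, Stat5a, Socs1, Pim1, Socs3, Cish and Socs2, and no neighbours overlapped in their 3 libraries except the last pair. In FO B (Aged), Socs3 and Socs1 stood above Stat5a, although Socs1 overlapped with both neighbours. In ABCs, Stat6 and Stat3 overlapped, as did Stat5b, Stat4, Socs1 and Socs3.

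Several of the genes lie close to or overlap another gene in the genome (GENCODE M21, GRCm38). On chromosome 11, Stat5b (100780731 to 100850724, minus strand), Stat5a (100859351 to 100885169, plus strand) and Stat3 (100885098 to 100939540, minus strand) are neighbours. Stat5b and Stat5a are 8626 bases apart, and the ends of Stat5a and Stat3 overlap by 72 bases, where unstranded reads cannot be assigned. On chromosome 1, Stat4 (51987148 to 52107189, plus strand) overlaps Gm28177 and Gm3940. Stat6 (chromosome 10, 127642986 to 127660957, plus strand) overlaps Nab2, and Pim1 (chromosome 17, 29490753 to 29496112, plus strand) overlaps Gm26885. Socs1 (chromosome 16, 10782240 to 10785536, minus strand), Socs3 (chromosome 11, 117966079 to 117970047, minus strand) and Socs2 (chromosome 10, 95385362 to 95417180, minus strand) overlap no annotated gene, and Cish lies on chromosome 9 (107296026 to 107302784, plus strand).

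Of 7 other SOCS, STAT and Pim genes, 6 were tested, and Socs7 was below 1 FPKM on average. In ABCs against aged FO B cells 0 were called higher and 2 lower, Pim3 and Socs5, an inhibitor linked to IL-4 and EGF receptors, which fell by 0.85 (SE 0.14, FDR 0.00411), from 6.26 ± 0.56 to 3.06 ± 0.562 FPKM (SD, n = 3). Stat2, a factor of type I interferon signalling, was at 32.7 ± 3.31 and 27.0 ± 0.902 FPKM (SD, n = 3; FDR 0.061 by limma). Socs4 was at 5.19 to 6.09 FPKM in FO B (Aged) against 5.23 to 7.09 in ABCs, and Socs6 at 6.23 to 8.64 against 5.29 to 6.82. In FO B (Aged) against FO B (Young) 0 of the 6 were called. The fall of Socs5 thus stood beside positive fitted changes of Socs1 and Socs3 that were not called.

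Of the 4 Janus kinases, Jak2, used by IL-12, interferon gamma and growth hormone receptors, fell by 1.52 in ABCs against aged FO B cells (SE 0.26, FDR 0.00406). Its ABC libraries had 5.18 to 11.8 FPKM, all below the 23.7 to 29.2 of FO B (Aged). Tyk2, used by type I interferon and IL-12 receptors, rose by 0.77 (SE 0.11, FDR 0.00196), from 11.2 to 13 FPKM to 19.7 to 24.4. Jak1 stayed the most abundant, with 169 to 192 and 152 to 180 FPKM, and Jak3 was at 29.2 to 38.4 and 34.5 to 44.4 FPKM, neither called. With age in FO B cells, 0 of the 4 were called. Of 12 other inhibitors of the pathway, 1 rose and 2 fell in ABCs. Ptpn1, the phosphatase PTP1B that acts on Jak2 and Tyk2, rose by 1.42 (SE 0.11, FDR 0.000185), from 67.6 ± 2.7 to 183 ± 29.3 FPKM (SD, n = 3), and Usp18, an inhibitor at the type I interferon receptor, fell by 1.45 (SE 0.30, FDR 0.00936). The counts for the kinases and for these inhibitors were the same without ABCs replicate 3.

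**Figure D4:**
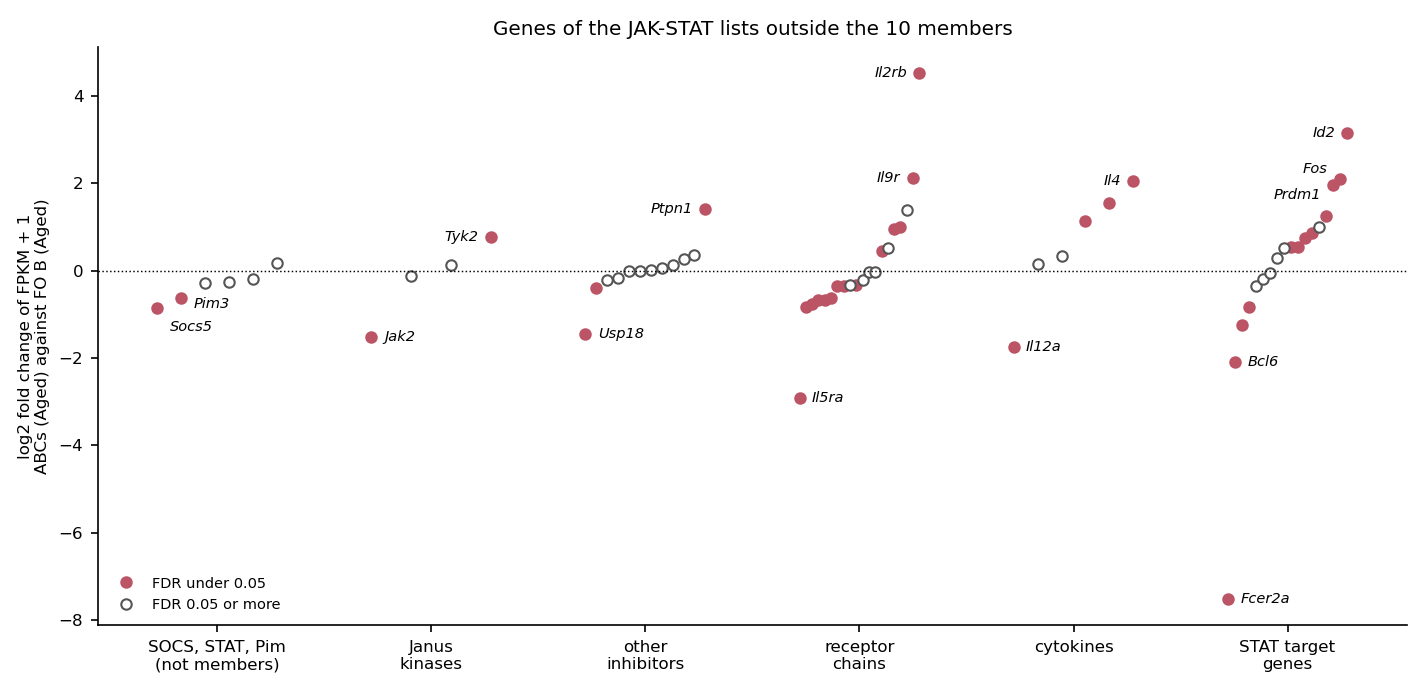
Fitted log2 fold change of FPKM + 1 between ABCs (Aged) and FO B (Aged) (vertical axis) for the tested genes of 6 JAK-STAT lists, sorted by value within each list; filled points had an FDR under 0.05. Il2rb (4.52) and Il9r (2.13) stand at the top of the receptor chains and Il5ra (-2.91) at the bottom, and Jak2 lies at -1.52; Fcer2a is the gene of the sort marker CD23.

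Of 34 cytokine receptor chains, 20 were tested between ABCs and aged FO B cells, where 5 rose and 9 fell with a median of -0.27. Shares over all genes tested were 19.4% higher and 16.5% lower. Il2rb, the beta chain for IL-2 and IL-15 that signals to STAT5, rose by 4.52 (SE 0.13, FDR 4.1e-06), from 0.285 to 0.494 FPKM to 26.4 to 34.0. Il9r rose by 2.13 (SE 0.19, FDR 0.000283) and Il3ra by 1.0 (SE 0.26, FDR 0.0225). Il5ra, the IL-5 receptor chain, fell by 2.91 (SE 0.35, FDR 0.000992), from 15.8 to 23.7 FPKM to 0.578 to 3.40. Without ABCs replicate 3 the counts were 6 and 9 of 21. Of 21 cytokine genes 6 were tested, and 3 rose and 1 fell. Il4, listed at 0 in all FO B libraries, was at 2.26 to 5.27 FPKM in ABCs (FDR 0.00131), and Ifng was at 2.08 to 2.77 FPKM in ABCs against at most 0.407 in FO B (Aged) (FDR 0.0012). Il12a fell by 1.74 (SE 0.19, FDR 0.00064). Il4 and Ifng are best known as products of T and NK cells, of whose markers Cd3g, Tcf7, Klrd1 and Nkg7 were measured in ABCs and most others, as given with Stat4, were near 0. Between the FO B groups 0 of 20 receptor chains and 0 of 3 cytokines were called.

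Of 18 textbook STAT target genes outside the SOCS and Pim families, 8 rose and 4 fell in ABCs against aged FO B cells, with a median of 0.54. Without ABCs replicate 3 these counts were 9 and 5. Over all genes tested, 19.4% were called higher and 16.5% lower in the main fit. Id2, an inhibitor of E proteins, rose by 3.15 (FDR 8.93e-05), Prdm1, the gene of Blimp-1, by 1.97 (FDR 0.00119), Batf by 1.26 (FDR 0.000333) and Fos by 2.1 (FDR 0.002). Bcl6, the germinal center repressor, fell by 2.08 (SE 0.18, FDR 0.000229), and Fcer2a, which the sort selected on, was lower. The other targets that fell were Myc (-1.24, FDR 0.000862) and Mcl1 (-0.82, FDR 0.0168), named after their values were seen. Of 19 immediate-early genes tested 10 rose and 3 fell (sums of 2849 to 3948 FPKM in ABCs against 2121 to 2383 in FO B (Aged)), and of 6 plasma cell genes 4 rose (976 to 1275 against 443 to 471, mostly Mzb1). The part of either in the target genes was not tested. Between aged and young FO B cells, 3 of 16 tested targets rose and 1 fell, beside 0.346% and 0.119% of all genes tested. These targets were named after their values were seen. Junb rose by 0.84 (SE 0.10, FDR 0.0118), Id2 by 0.85 (SE 0.12, FDR 0.0287) and Irf1 by 0.48 (SE 0.08, FDR 0.0404), whereas Fcer2a fell by 0.46 (SE 0.05, FDR 0.0109). Beside Socs3, 2 of 18 tested immediate-early genes (Junb and Ier2) rose in aged FO B cells and 0 fell, with a median of 0.21. Junb is in both lists and is thus counted in each. The immediate-early sums were 2121 to 2383 FPKM against 1780 to 1913 in FO B (Young). The part of these genes in the Socs3 difference was not tested.

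The genes with the most similar profile were found as those with the smallest mean absolute difference in log2(FPKM + 1), after centring, over the 9 libraries. For Socs3 these were Nr3c2, Serpina3g and Rgmb, with differences of 0.297 to 0.357 where the mean deviation of Socs3 itself was 0.862. For Socs1 they were Mageh1, Ifi30 and Lnpep (0.190 to 0.192, own deviation 0.578), for Stat3 Ifi47, 1700020I14Rik and Btbd10 (0.056 to 0.061, own 0.214), for Stat4 Bcl11a, Plcb2 and B3gnt8 (0.170 to 0.217, own 0.680), and for Pim1 Fam49a, Gem and 4933421O10Rik (0.082 to 0.114, own 0.336). Neither Socs1 nor Socs3 was among the 3 nearest genes of the other. This measure depends on the size of the changes as well as on their shape. With own deviations of 0.578 and 0.862, Socs3 could not have been among the nearest of Socs1. The absence thus does not show whether the 2 genes move together.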

How the data were processed

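RNA-seq of 9 libraries was analysed, with groups and replicate numbers from the sample titles. Per the methods and labels, the authors used the SMART-Seq HT and Nextera kits, which do not mark strand, with single-end reads of 101 bases on mm10, and deposited 1 FPKM value per gene symbol and library. The submitters' processing notes list TopHat2 2.1.1, Bowtie2 2.2.8, SAMtools 0.1.18 and Cuffdiff 2.2.1, while the methods name Cufflinks and other versions. The annotation is not given in the sources used here. Reads of a gene shared with overlapping genes or paralogs could be split by this step.

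From the FPKM values, log2(FPKM + 1) was modelled by limma 3.58.1 (R 4.3.3; linear fit, then moderation with a mean-variance trend) in the 6 libraries of each comparison, for genes averaging 1 FPKM or more, with Benjamini-Hochberg adjustment. A fold change on this scale understates that of low genes. Intervals use the moderated standard error. Single genes were tested by exact two-sided permutation over 20 orders. On simulated data with 200 changed genes, the fit called 181, 194 and 183 of them and 9, 10 and 16 unchanged genes. The order is ABCs against aged FO B, aged against young FO B, ABCs against young FO B. The genes fitted were 10326, 10118 and 10386. Changed genes were drawn above a floor of mean level and shifted by at least 1 on the log2 scale, with normal noise. Recovery of lower genes or of smaller changes was not simulated. Depth was taken from the FPKM step that 1 read makes in 609 genes with 1 transcript of at least 1000 bases, assuming 200-base fragments. Depth is otherwise unknown, and nothing in the labels says that replicates were separate animals. The study itself gives 3 mice each for its RNA-seq of young and aged mice. The limma p-values set each difference against the spread between these libraries, moderated over all genes, with groups taken as unpaired in the main fit.

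The 10 genes and all lists were chosen with earlier results of these data known. Some genes are in more than 1 list and are counted in each. Fos, Junb and Myc are both STAT targets and immediate-early genes. Prdm1 is a target and a plasma cell gene, and Usp18 an inhibitor and an interferon-stimulated gene. Named beside them were, from each list and comparison, at most 6 genes with an FDR under 0.05 and an absolute log2 fold change of at least 1. The SOCS, STAT, Pim and Jak genes were named too, and the 3 genes nearest in profile to Socs1, Socs3, Stat3, Stat4 and Pim1. Those nearest to Stat5a, Stat5b and Stat6 were found but are not named. Socs2 and Cish averaged under 1 FPKM and were not in that search. Single genes of the cell type lists were named after their values were seen. Genes withheld from the text are not reported here and were left out of the lists and sums. Alternatives were a pseudocount of 0.1 or 0.01, a filter at 5 FPKM or none, scaling by quantile normalization, to TPM or to the upper quartile, no trend in eBayes, a fit of all 9 libraries, a replicate block, stricter thresholds and leaving out each library. Lists without ABCs replicate 3, and a fit with genes at 0 in every library kept, were added after the data were seen. Promoter sequences are from RefSeq (GRCm38.p6). Python 3.11.15, pandas 2.3.3, scipy 1.17.1 and matplotlib 3.10.9 were used. Measurements of the study other than RNA-seq were not analysed here.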

Additional observations from a re-analysis of the deposited data

How the results depend on the processing

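Between ABCs (Aged) and FO B (Aged), the number of the 10 genes called higher moved from 0 to 1 with no filter on low values (Cish), to 1 with all 9 libraries in the fit (Pim1), and to 2 with scaling to the upper quartile (Socs1 and Stat3), and was 0 to 1 when single libraries were left out. The number called lower was 0 to 1 when single libraries were left out, in both comparisons of ABCs. Between the FO B groups, the number called higher moved from 1 to 0 with genes at 0 in every library kept (Socs3, FDR 0.121) and to 0 with the stricter thresholds (log2 fold change over 2.3, FDR below 0.01), and was 1 to 2 when single libraries were left out. With those thresholds it moved from 4 to 0 between ABCs (Aged) and FO B (Young). With genes at 0 kept, Pim1 lost its call there (FDR 0.0672) and the other 3 genes held theirs. Scaling to the upper quartile moved the median of all genes to 0.15 between ABCs and aged FO B cells and to -0.12 between the FO B groups. Under it Stat5a, Stat5b and Stat6 turned to 0.07, 0.14 and 0.08 in the former, all under that median, and Stat5b to -0.06 in the latter. Calls over all genes split 2459 higher to 603 lower under it, against 2020 to 1719. Other signs that turned were small. Socs3 in ABCs against aged FO B cells ranged from -0.04 to 0.40 over single libraries left out, and was -0.02 without FO B (Aged) replicate 2, -0.04 without ABCs replicate 1 and -0.02 without ABCs replicate 3. Stat5a (-0.22 to 0.02) was 0.02 without FO B (Aged) replicate 3 and Stat5b (-0.07 to 0.00) was 0.00 without FO B (Aged) replicate 1. Stat6 between the FO B groups (-0.07 to 0.03) was 0.02 with young replicate 2 left out and 0.03 with aged replicate 2 left out, and Stat5b was -0.01 between ABCs and FO B (Young) with TPM. The causes were not tested. Over all genes, the 35 higher and 12 lower calls between FO B groups became 13 and 2 with no filter, 14 and 6 with all 9 libraries, 22 and 8 without a trend, 24 and 27 with the upper quartile and 17 and 21 with genes at 0 kept.

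With the replicate number as a block, 1 gene (Socs1, 0.46, FDR 0.0435) was called higher between ABCs and aged FO B cells instead of 0, and calls over all genes moved from 3739 to 3448. The block changed no other call of the 8 genes. Correlations of deviations were -0.019 to 0.108 for libraries of these groups with the same number, against -0.108 to 0.059 for those with different numbers. Between FO B groups they were -0.092 to 0.138 against -0.105 to 0.157. With so few libraries per group, these values cannot decide whether ABCs and aged FO B cells of the same number came from the same mice. Depth limits Cish and Socs2, with at most 20.6 and 17.2 reads in any FO B library if all came from the longest transcript.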

Other observations

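Of 18 interferon-stimulated genes 16 were tested between ABCs and aged FO B cells, where 2 rose and 6 fell with a median of -0.47 (3 and 6 without ABCs replicate 3). Shares over all genes tested were 19.4% higher and 16.5% lower. Rtp4 fell by 3.08 (FDR 0.000628 by limma), Oasl2 by 1.74 (FDR 0.0011) and Irf7, the amplifier of type I interferon, by 1.17 (FDR 0.0238), whereas Mx1 rose by 1.06 (FDR 0.00256). Their FPKM summed to 169 to 223 in ABCs, which overlapped the 220 to 303 of FO B (Aged), and to 324 to 393 in the young libraries. In aged against young FO B cells 1 of 17 fell, Mx1 by 1.27 (FDR 0.00872), and 0 rose.

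Of 21 immediate-early genes, 19 were tested between ABCs and aged FO B cells, where 10 rose and 3 fell (9 and 3 of 18 without ABCs replicate 3). Shares over all genes tested were 19.4% higher and 16.5% lower. Fos and Egr1 rose by 2.1 and 1.97 (FDR 0.002 and 0.00219 by limma), Egr2 by 1.60 (FDR 0.00228), Fosb by 1.5 (FDR 0.00858), Jun by 1.42 (FDR 0.00017) and Dusp1 by 1.31 (FDR 0.0387). Between the FO B groups 2 of 18 rose, Junb and Ier2, the latter by 0.41 (FDR 0.0494) and named after its value was seen.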
